A study of Rattus norvegicus with 6 samples.

Results

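Oxidative phosphorylation genes were the 114 of 14607 genes listed for rat cortical mural cells whose symbol starts with Mt-, Nduf, Cox and a digit, Uqcr or Atp5, or is that of an Sdh subunit, Cyc1 or Cycs. The 13 symbols starting with Mt- are encoded in mitochondrial DNA, and the other 101 genes, with 98 different symbols, are nuclear. The symbols were chosen for their function, though with earlier results of these data known.

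Oxidative phosphorylation makes ATP in the inner mitochondrial membrane. Complexes I and II pass electrons from NADH and succinate to coenzyme Q, complex III passes them on to cytochrome c, complex IV hands them to oxygen, and complex V, the ATP synthase, uses the proton gradient that complexes I, III and IV build. Mitochondrial DNA encodes a few core subunits of complexes I, III, IV and V, which are transcribed and translated inside the organelle. All other subunits, complex II, cytochrome c and the factors that assemble the complexes are made from nuclear genes, so both genomes must supply complexes I, III, IV and V. Some subunits also have isoforms used in particular tissues or when oxygen is low.

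The cells came from the cerebral cortex of male Sprague-Dawley rats aged 4 to 5 weeks, and RNA-Seq was run on 3 samples of vascular smooth muscle cells (VSMCs) and 3 samples of mid-capillary pericytes (mcPCs). Each of the 3 isolations pooled 10 rats. VSMCs, the contractile cells around arterioles, were freed from arterioles held back on a filter, depleted of CD31 and CD11b labelled cells and then captured by their binding of the lectin GSA-FITC. The mcPCs, which surround capillaries, were what remained of the filtrate after endothelial cells, microglia, astrocytes and oligodendrocytes had been removed by magnetic sorting. The labels give no treatment and no genetic change for either group. Cell type therefore went together with a different vessel segment, digestion and kind of sort, and these cannot be told apart here.

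The values used are the authors' means of each cell type, so no SD, test or number of samples showing a direction can be given for any value below. The reads assigned to genes averaged 62.0 M (M, 1e6) in a VSMC sample and 48.0 M in a mcPC sample. A level below is a mean in TPM, the copies of a transcript in every 1e6 transcripts, which accounts for transcript length and allows genes to be compared. A difference between cell types below is the log2 ratio of the mean normalised counts, mcPC over VSMC, unless another scale is named. Its median was 0.01 over all 14607 genes and -0.11 over the 12218 genes with at least 0.8 TPM in VSMCs.

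Most marker genes listed for each cell type were higher in the samples labelled as that type. All 10 VSMC markers listed were at least 2-fold lower in mcPCs, with a median log2 ratio of -7.91, and 8 of 10 mcPC markers were at least 2-fold higher, with a median of 3.65. Cspg4 at -0.19 and Rgs5 at -0.06 were not. The paper describes Cspg4, Rgs5 and Pdgfrb as shared by both cell types, though Pdgfrb, at 1.17, was among the 8. From these same data the paper names Abcc9, Kcnj8, Ggt1 and Atp13a5 as mcPC genes. It names Myh11, Acta2 and Des as VSMC genes in the same way, so none of these is an independent check. The mcPC samples also held RNA of other cells. The 22 erythrocyte genes listed of 33 searched summed to 0.735% of the VSMC TPM and 54.4% of the mcPC TPM. With 4 further globin genes, which are not on the erythrocyte list, the sums were 0.887% and 66.9%. Summed TPM was 699 in VSMCs and 359 in mcPCs for 22 of 24 endothelial genes, 2.47 and 167 for 9 of 20 microglial and leukocyte genes, 4.64 and 33.4 for 9 of 17 neuronal genes, 27.2 and 21.2 for 6 of 11 astrocyte genes, and 19.8 and 20.7 for 7 of 10 oligodendrocyte genes. With the erythrocyte list left out of the total, the sum of each of these other cell types was higher in mcPCs. The endothelial sum was then 705 in VSMCs and 789 in mcPCs, and the astrocyte sum 27.4 and 46.7. With all genes in the total, Esam alone held 487 TPM of the endothelial sum in VSMCs and 184 in mcPCs. At least 2-fold higher log2 ratios were held by 19 of the 22 erythrocyte, 18 of the 22 endothelial, 9 of the 9 microglial, 9 of the 9 neuronal, 4 of the 6 astrocyte and 6 of the 7 oligodendrocyte genes. Among all listed genes 22% were at least 2-fold higher. No marker with a row was at 0, since the table keeps genes with reads in every sample. The part of these cells in the values of oxidative phosphorylation genes was not tested, and in such bulk samples fewer cells of a type cannot be told apart from less RNA per cell.

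The medians of the mitochondrial and of the nuclear genes of oxidative phosphorylation stood on opposite sides of the median gene. On normalised counts all 13 mitochondrially encoded genes were at least 4-fold above VSMCs in mcPCs, with log2 ratios from 2.06 for Mt-atp6 to 2.77 for Mt-nd4l and a median of 2.31. Among all listed genes 12.4% were at least 4-fold higher and 22% at least 2-fold higher. The 101 nuclear genes had a median of -0.37, and 81 of them, or 80.2%, lay below 0, against 49.3% of all listed genes. All 114 genes had at least 0.8 TPM in VSMCs. Of the 12218 listed genes at that level, 56.0% lay below 0, 13.1% were at least 2-fold higher and 15.8% at least 2-fold lower. Only 2 nuclear genes were at least 2-fold higher and 6 at least 2-fold lower, where 13.9% of all listed genes were at least 2-fold lower, and the other 93 lay between. The 2 groups did not overlap, since the highest nuclear value was 1.46, for Cox4i2. The median mitochondrial gene thus stood 2.68 log2 units above the median nuclear gene.

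**Figure D1:**
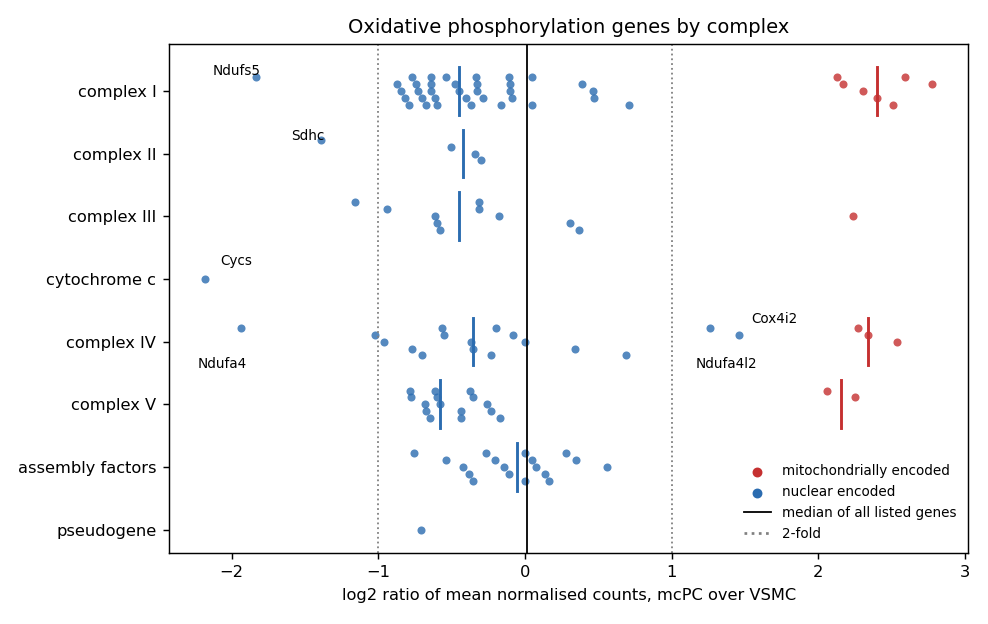
Log2 ratio of mean normalised counts, mcPC over VSMC, of each oxidative phosphorylation gene by complex (points: genes; short bars: group medians; black line: median of all listed genes; dotted lines: 2-fold). All 13 mitochondrially encoded genes (red) lie at 2.06 or above, and the nuclear genes (blue) lie between -2.18 and 1.46, most of them below the median of all genes.

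The size of a difference, and for some nuclear genes its direction, depended on the scale, whereas all 13 mitochondrial genes were above 0 on each of 7 scales. On mean TPM the median of all listed genes was -1.72, with the mitochondrial median at 0.50 and the nuclear median at -2.19. Relative to the median of all listed genes, the mitochondrial median was 2.29 with normalised counts and 2.22 with mean TPM, and the nuclear median was -0.38 and -0.47. The gap between the medians of mitochondrial and nuclear genes was 2.68 with normalised counts, 2.69 with mean TPM and 2.66 with mean counts. Rescaling a cell type by a constant cannot alter this gap, so the other scales give no further check of it. Cox4i2 and Ndufa4l2, the 2 nuclear genes that were higher with normalised counts, were at -0.37 and -0.57 on mean TPM, which is still above the median gene on that scale.

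**Figure D2:**
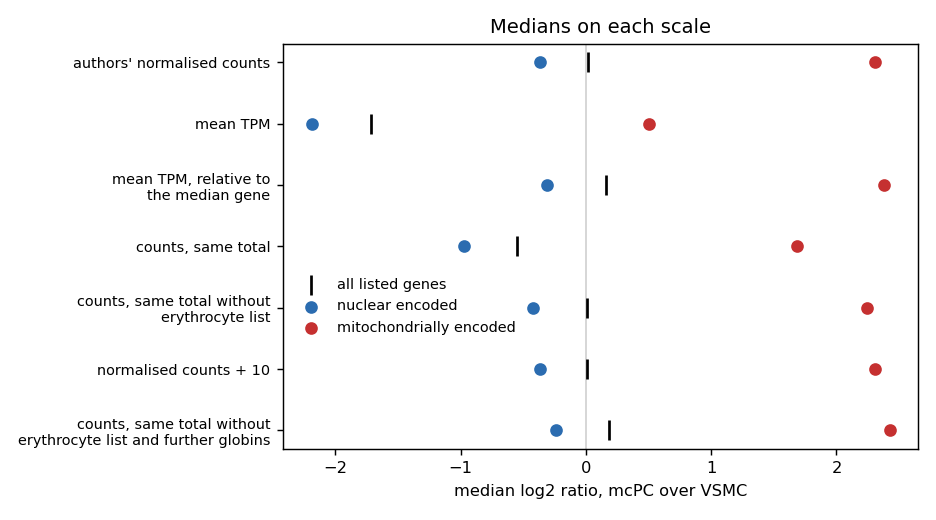
Median log2 ratio, mcPC over VSMC, of mitochondrially encoded genes (red), nuclear encoded genes (blue) and all listed genes (black ticks) on each of 7 scales. All 3 medians move together from scale to scale, since most scales shift every gene by the same amount, and the mitochondrial median is at 0.50 on mean TPM and at 1.68 or above on the others.

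Within either cell type, mitochondrially encoded transcripts were among the most abundant of all. By TPM they ranked from 3 to 214 among the listed genes in VSMCs and from 6 to 36 in mcPCs. Together they made up 8.27% of the TPM in VSMCs and 11.7% in mcPCs. With the erythrocyte list left out of the total, their share was 8.33% in VSMCs and 25.6% in mcPCs, and with 4 further globin genes left out too it was 8.35% and 35.3%. Their share of the reads was 3.53% in VSMCs and 11.1% in mcPCs. The nuclear genes ran the other way, at 2.76% of the TPM in VSMCs and 0.615% in mcPCs, or 2.78% and 1.35% without the erythrocyte list.

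The order of the mitochondrial genes was much the same in both cell types. Highest was Mt-atp6, the proton channel subunit of ATP synthase, at a mean of 15731 TPM in VSMCs and 18782 in mcPCs. Mt-co1, the catalytic subunit of complex IV, followed at 12478 TPM in VSMCs and 17305 in mcPCs. Mt-cox3, another core subunit of complex IV, had 10652 TPM and 15580 TPM. Mt-co2, which receives electrons from cytochrome c, stood lower than the other complex IV subunits, at 6609 TPM in VSMCs and 11094 in mcPCs. Mt-cyb, cytochrome b and the only mitochondrially encoded subunit of complex III, had 7099 TPM and 9658 TPM.

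The 7 complex I genes formed the lower part of the order. Mt-nd1 had 5119 TPM in VSMCs and 7244 in mcPCs, and Mt-nd2 had 5113 TPM and 7645 TPM. Mt-nd4 followed at 2664 TPM and 4363 TPM, and Mt-nd5 was lowest in both cell types at 759 TPM and 982 TPM. All of these are membrane subunits of the proton-pumping arm. Mt-nd6, the one protein gene on the light strand of mitochondrial DNA, had 1689 TPM in VSMCs and 2131 in mcPCs. The highest and the lowest of the 13 levels differed 20.7-fold in VSMCs and 19.1-fold in mcPCs, and Spearman's rho of the 13 levels between cell types was 0.98, given as a description since all 13 genes share the same libraries.

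The 13 differences were close to each other but not equal. On the log2 scale of normalised counts they were 2.06 for Mt-atp6, 2.13 for Mt-nd6, 2.17 for Mt-nd5, 2.24 for Mt-cyb, 2.25 for Mt-atp8, 2.27 for Mt-co1 and 2.31 for Mt-nd1. The remaining genes stood at 2.34 for Mt-cox3, 2.40 for Mt-nd2, 2.51 for Mt-nd4, 2.53 for Mt-co2, 2.59 for Mt-nd3 and 2.77 for Mt-nd4l. Their range of 0.72 log2 units was narrower than the 3.64 of the 101 nuclear genes, though a range grows with the number of genes. The SD across genes was 0.20 for the mitochondrial and 0.55 for the nuclear genes. A narrow range was not particular to the mitochondrial genes, since the 15 nuclear genes of complex V had a range of 0.61. Mt-nd4l and Mt-nd3, small membrane subunits of complex I, had the highest log2 ratios, and Mt-nd3 was at 2084 TPM in VSMCs and 3646 in mcPCs.

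Several of these values are uncertain as measures of single genes. Effective lengths were 40.7 bases for Mt-atp8, 94.9 for Mt-nd4l and 141.5 for Mt-nd3, and so small a divisor makes TPM sensitive to the length model. Mt-atp8, the small ATP synthase subunit whose reading frame overlaps that of Mt-atp6, was at 11412 TPM in VSMCs and 15704 in mcPCs. Mt-nd4l, which overlaps Mt-nd4 in the same way, was at 1150 TPM and 2273 TPM. Mt-nd5 and Mt-nd6 lie next to each other on opposite strands. Nuclear copies of mitochondrial DNA can also share reads with these genes.

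**Figure D3:**
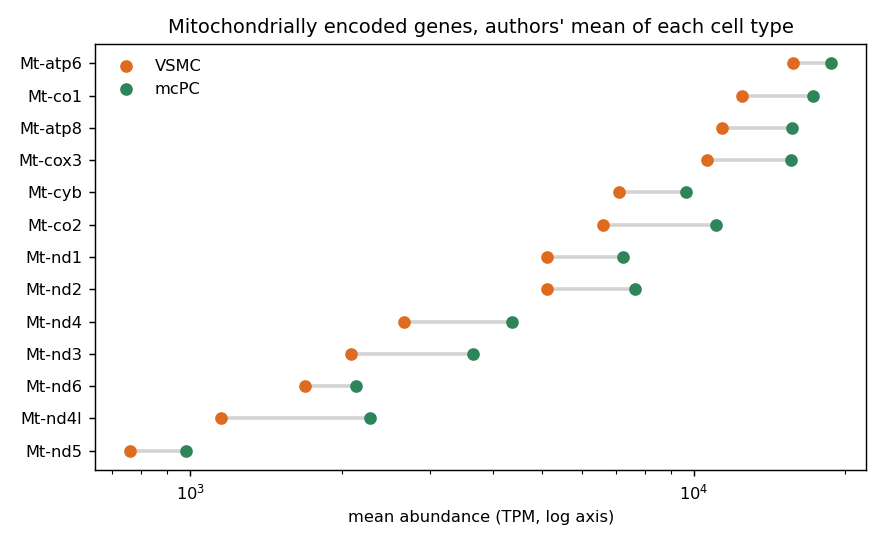
Mean abundance in TPM (log axis) of the 13 mitochondrially encoded genes in VSMCs (orange) and mcPCs (green), ordered by the VSMC level. Every gene is higher in mcPCs even on this scale, on which the median of all genes is lower, and the order from Mt-atp6 at the top to Mt-nd5 at the bottom is nearly the same in both.

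Because the mitochondrial and nuclear genes did not overlap, their separation had to hold in every complex to which both genomes contribute. The medians below give only its size. In complex I the median log2 ratio was 2.40 for 7 mitochondrial genes and -0.45 for 35 nuclear genes. In complex III it was 2.24 for Mt-cyb and -0.45 for 10 nuclear genes. In complex IV it was 2.34 for 3 mitochondrial genes and -0.36 for 17 nuclear genes, and in complex V 2.15 for 2 mitochondrial genes and -0.58 for 15 nuclear genes. The gap was thus 2.85, 2.69, 2.69 and 2.73 in complexes I, III, IV and V.

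The same separation can be restated as the ratio of the median mitochondrial TPM to the median nuclear TPM within a cell type. Like the gap, this ratio does not depend on scaling between cell types. It rests on the same samples and is no independent check. This ratio was 12.5 in VSMCs and 84.4 in mcPCs for complex I, 41.6 and 244 for complex III, 31.1 and 156 for complex IV, and 31.6 and 217 for complex V. Between the cell types it differed 5.04-fold in complex IV, 5.86-fold in complex III, 6.77-fold in complex I and 6.86-fold in complex V. In all 4 complexes the ratio was higher in mcPCs. This direction was fixed, since on mean TPM the mitochondrial log2 ratios were 0.26 or above and the nuclear ones -0.37 or below.

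Among the nuclear subunits of complex I, the NADH dehydrogenase, 29 of 35 had log2 ratios below 0. Ndufs5, an accessory subunit, was the only complex I gene at least 2-fold lower, with a log2 ratio of -1.83 and levels of 28.5 TPM in VSMCs and 2.48 in mcPCs. It rested on few reads, 385 over the 3 VSMC samples (exact 95% Poisson interval 347.5 to 425.4) and 61 over the 3 mcPC samples (46.7 to 78.4). The interval of its log2 ratio from counting alone was -2.25 to -1.44.

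At the other end of complex I stood the accessory subunits Ndufa1, Ndufc2 and Ndufa3. Ndufa1 had 2 rows, with log2 ratios of 0.71 and 0.47, Ndufc2 was at 0.47 and Ndufa3 at 0.39. The second Ndufa1 row was also the most abundant nuclear complex I row, at 1177 TPM in VSMCs and 458 in mcPCs, but its effective length was only 44.0 bases. None of these rows reached 2-fold.

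Complex II, succinate dehydrogenase, has no mitochondrially encoded subunit, and all 4 of its genes had log2 ratios below 0. Sdhc, which anchors the complex in the membrane, was at -1.39, from 377 TPM in VSMCs to 40.4 TPM in mcPCs, and was the most abundant complex II gene in both. Sdha, the flavoprotein, was at -0.50, Sdhd, the other anchor, at -0.34 and Sdhb, the iron-sulphur subunit, at -0.30. The 4 subunits of this complex ranged over 156 to 377 TPM in VSMCs and 35.7 to 40.4 TPM in mcPCs, so that the excess of Sdhc seen in VSMCs was nearly absent in mcPCs.

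In complex III, 8 of 10 nuclear rows had log2 ratios below 0. Uqcrb, a small subunit at the coenzyme Q site, had 2 rows, with log2 ratios of -1.16 and -0.94, and reads may be split between its rows. Uqcrc1, a matrix-facing core subunit, was at 0.37 and Uqcrh, the hinge subunit, at 0.31. Uqcrh was the most abundant nuclear gene of the complex, at 525 TPM in VSMCs and 182 in mcPCs. Uqcrfs1, the Rieske iron-sulphur subunit, was at -0.32, and Cyc1, cytochrome c1, at -0.18.

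Cycs, somatic cytochrome c and the mobile carrier between complexes III and IV, had the lowest log2 ratio of all 114 genes, at -2.18. Its mean was 363 TPM in VSMCs and 22.6 in mcPCs, resting on 14792 and 1669 reads in a sample. Its log2 ratio, though not its level, was lower than that of every nuclear row of complexes III and IV. Rat cytochrome c has processed pseudogenes in the genome that may share its reads.

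Complex V was the most uniform. All 15 nuclear rows had log2 ratios below 0, from -0.78 for Atp5a1, the alpha subunit of the catalytic head, to -0.17 for Atp5h, a stalk subunit, and none was at least 2-fold lower. Atp5b, the catalytic beta subunit, was the most abundant nuclear gene of the complex, at 1438 TPM in VSMCs and 300.02 in mcPCs, with a log2 ratio of -0.43. The 3 genes for the proton-carrying c ring, whose mature proteins are the same, kept close proportions. Atp5g1, Atp5g2 and Atp5g3 held 17.0%, 44.8% and 38.2% of their summed TPM in VSMCs and 19.5%, 43.6% and 36.8% in mcPCs, with log2 ratios of -0.36, -0.61 and -0.60.

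Complex IV, cytochrome c oxidase, had the widest spread of any complex, from -1.94 to 1.46 over 17 nuclear rows, and 13 of them were below 0. Its most abundant nuclear gene was Cox8a, a small membrane subunit, in VSMCs, at 1342 TPM, and Ndufa4l2 in mcPCs, at 230.4 TPM, where Cox8a was at 220.9 TPM. Cox7c, another small subunit, was at -1.02, Cox6c at -0.96 and Cox8a at -0.77. The extremes of the complex were formed by members of isoform pairs.

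Cox4i1 and Cox4i2 are alternative forms of subunit 4, which binds ATP and regulates the enzyme, and Cox4i2 is the form known from lung and from cells exposed to low oxygen. Cox4i2 was at 207.7 TPM in VSMCs and 160.5 in mcPCs, and Cox4i1 at 839.9 TPM and 184.4 TPM. Cox4i2 thus made up 19.8% of the pair in VSMCs and 46.5% in mcPCs. The ratio of Cox4i2 to Cox4i1 was 0.247 in VSMCs and 0.871 in mcPCs, a 3.52-fold difference, and on normalised counts Cox4i2 had a log2 ratio of 1.46 and Cox4i1 of -0.36. No scaling between cell types enters the ratio within a pair.

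Ndufa4, first named as a complex I subunit and now placed in complex IV, and its paralog Ndufa4l2, known as a target of the hypoxia-inducible factor HIF-1, were further apart. Ndufa4 was at 131.8 TPM in VSMCs and 9.87 in mcPCs, with a log2 ratio of -1.94, the lowest after Cycs. Ndufa4l2 was at 342.8 TPM in VSMCs and 230.4 in mcPCs, with a log2 ratio of 1.26. It already held 72.2% of the pair in VSMCs and held 95.9% in mcPCs. The ratio of Ndufa4l2 to Ndufa4 was 2.60 in VSMCs and 23.3 in mcPCs, an 8.97-fold difference.

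The other isoform families differed less. Cox6b2 held 5.50% of Cox6b1 and Cox6b2 in VSMCs and 6.38% in mcPCs, with a log2 ratio of -0.09, and the 2 rows of Cox6b1 were at -0.20 and -0.37. In the Cox7a family, Cox7a2l, a factor of supercomplex assembly, held 25.7% in VSMCs and 35.2% in mcPCs, Cox7a2l2 72.0% and 59.8%, and Cox7a1, the heart and muscle form, 2.33% and 5.04%. Their log2 ratios were -0.00, -0.70 and 0.69. Cox7a2 was not listed under that symbol, so these shares are of the listed members and not of the whole family. Cox7a1 rested on 84 reads over the VSMC samples and 66 over the mcPC samples, and its counting interval was 0.20 to 1.17. Cox6a1 (log2 ratio -0.23), Cox7b (0.34), Cox8a and Cycs were listed without a second isoform.

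**Figure D4:**
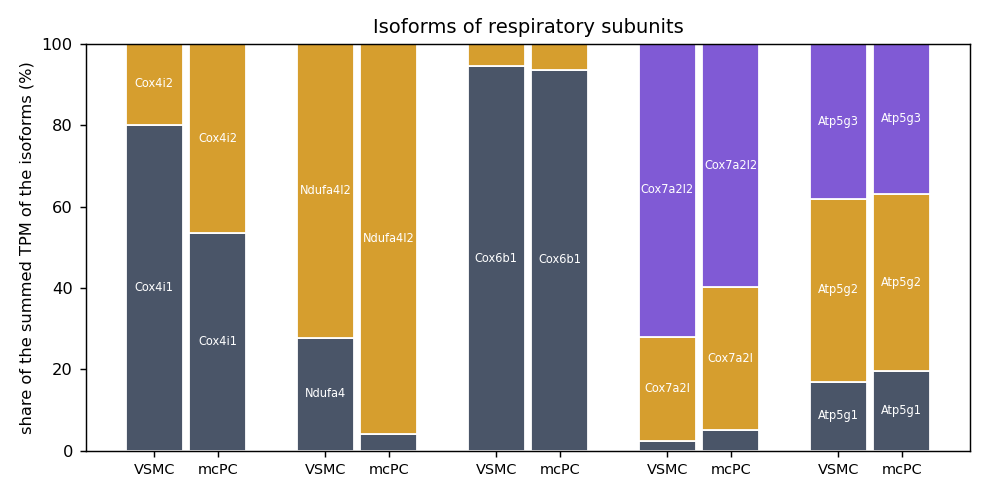
Share of each isoform in the summed mean TPM of the listed members of its family (%), in VSMCs and mcPCs. The families are subunit 4, Ndufa4, Cox6b, Cox7a (Cox7a2 not listed) and the c subunit of ATP synthase. Unlabelled segments are Cox6b2 (5.50% and 6.38%), Cox7a1 (2.33% and 5.04%) and, in mcPCs, Ndufa4 (4.11%), and the subunit 4 and Ndufa4 families differ most between the cell types.

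The promoters of Cycs and of the Ndufa4 and Cox4i genes are shown because these genes stood furthest from the other nuclear genes or are the partners of those that did. They are 300 bases each, 250 before the start of the gene and 50 after it, from RefSeq on the GRCr8 assembly, whereas the expression values rest on Rnor_6.0 transcripts. A promoter was matched for 85 of the 98 nuclear symbols. Of the 13 others Cox4i2 is one. Capitals mark the letters GCATGCGC, a core of the binding site of nuclear respiratory factor 1, CCGGAAG, a core of the ETS family site used by GABP, and ACGTG, a core of the hypoxia response element, each searched on both strands. None of the 3 motifs contains another. Cycs is at chr4:80984718-80985017 on the minus strand, Ndufa4 at chr4:40975510-40975809 on the minus strand, Ndufa4l2 at chr7:65241919-65242218 on the plus strand and Cox4i1 at chr19:65630133-65630432 on the plus strand.
Cycs: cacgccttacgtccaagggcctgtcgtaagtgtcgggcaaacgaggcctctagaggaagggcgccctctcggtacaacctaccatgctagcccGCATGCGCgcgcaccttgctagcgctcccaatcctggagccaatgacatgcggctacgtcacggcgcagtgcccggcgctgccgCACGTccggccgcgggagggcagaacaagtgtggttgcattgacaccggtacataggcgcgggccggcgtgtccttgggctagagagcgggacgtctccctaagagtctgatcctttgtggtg
Ndufa4: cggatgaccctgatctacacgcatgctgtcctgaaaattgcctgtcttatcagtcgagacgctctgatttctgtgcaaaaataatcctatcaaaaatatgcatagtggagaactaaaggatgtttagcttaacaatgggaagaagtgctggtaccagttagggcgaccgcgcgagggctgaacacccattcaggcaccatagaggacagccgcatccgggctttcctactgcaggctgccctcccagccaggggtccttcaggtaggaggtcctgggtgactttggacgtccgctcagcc
Ndufa4l2: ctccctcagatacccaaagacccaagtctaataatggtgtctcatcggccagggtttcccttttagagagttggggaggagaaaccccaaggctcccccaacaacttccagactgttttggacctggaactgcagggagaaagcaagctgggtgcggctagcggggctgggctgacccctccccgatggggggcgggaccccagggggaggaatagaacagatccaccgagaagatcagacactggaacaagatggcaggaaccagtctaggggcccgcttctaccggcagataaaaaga
Cox4i1: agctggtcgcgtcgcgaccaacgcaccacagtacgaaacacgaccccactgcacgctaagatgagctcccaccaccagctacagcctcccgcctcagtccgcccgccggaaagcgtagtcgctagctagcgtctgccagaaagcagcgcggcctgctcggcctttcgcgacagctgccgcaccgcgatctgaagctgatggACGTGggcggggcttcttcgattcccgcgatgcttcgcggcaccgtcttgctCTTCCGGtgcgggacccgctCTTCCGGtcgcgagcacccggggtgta

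The Cycs window held the respiratory factor core and the hypoxia core once each, and the Cox4i1 window held the ETS core at 2 places and the hypoxia core at 1. The Ndufa4 and Ndufa4l2 windows held none of these letters. Over the 85 windows, the respiratory factor core was found in 12 (14.1%), against 2.66% of 27457 rat promoters of the same length. The ETS core was found in 23 (27.1%), against 9.21%, and the hypoxia core in 24 (28.2%), against 19.7%. A match is a description of the letters and not evidence of binding.

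The 18 assembly factors, which are not part of the finished complexes, lay nearer to the median gene than the subunits did. The 82 rows of nuclear subunits and cytochrome c had a median log2 ratio of -0.44, with 70 (85.4%) below 0. The assembly factors had a median of -0.06, with 10 (55.6%) below 0. That share was near the 49.3% of all listed genes and the 56.0% of those with at least 0.8 TPM in VSMCs. The highest was Cox18, which inserts the Mt-co2 protein into the membrane, at 0.56, and the lowest was Cox17, the copper chaperone of complex IV, at -0.76. Ndufaf6 was at -0.26 with a counting interval of -0.48 to -0.06. No assembly factor was at least 2-fold apart, where 22% of all listed genes were at least 2-fold higher and 13.9% lower. The 33 of 37 further assembly factors that lie outside the symbol rule had a similar median of -0.04, with 1 (3.03%, against 22% of all listed genes) at least 2-fold higher and 2 (6.06%, against 13.9%) at least 2-fold lower.

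Those 33 ran from Nubpl, an iron-sulphur factor of complex I, at 1.16, Cmc2 at 0.81 and Lyrm7, a complex III factor, at 0.66, down to Ttc19, another complex III factor, at -0.91, Coa5, a complex IV factor, at -1.06, and Sdhaf2, which attaches the flavin to Sdha, at -1.09. Of 33 genes that copy, transcribe and process mitochondrial DNA, 31 were listed, with a median of -0.01. None was at least 2-fold higher, against 22% of all listed genes, and 1 (3.23%, against 13.9%) was at least 2-fold lower. The mitochondrial transcripts themselves had a median of 2.31, and a link between the levels of these genes and those transcripts was not tested. The highest were Fastkd1, an RNA-binding protein of mitochondria, at 0.66, Polg2, the accessory subunit of the mitochondrial DNA polymerase, at 0.60, and Mterf1 at 0.42. The lowest were Mterf2 at -1.98, the only one at least 2-fold lower, Trmt10c, a subunit of mitochondrial RNase P, at -0.87, and Slirp, which stabilises mitochondrial mRNA, at -0.68. Mterf2 rested on few reads, 184 in a VSMC sample and 24.2 in a mcPC sample.

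The nuclear regulators of respiratory genes, 13 of 13 listed, had a median log2 ratio of -0.53. Below 0 lay 12 of the 13, against 49.3% of all listed genes, but only 2 (15.4%) were at least 2-fold lower, a share near the 13.9% of all listed genes, and none was at least 2-fold higher. The lowest were Ppargc1b, a coactivator of mitochondrial biogenesis, at -1.52, Ppara, a nuclear receptor of fatty acid oxidation, at -1.45, and Pprc1, a related coactivator, at -0.94. The highest were Gabpb1, a GABP subunit, at 0.13, Ppargc1a at -0.15, and Nrf1 at -0.18. Ppargc1a, the best known coactivator of this family, was barely present, at 0.321 TPM in VSMCs and 0.0873 in mcPCs.

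Genes of the response to hypoxia and of oxygen-dependent respiration, 16 of 17 listed, had a median of -0.44, with 4 (25%) at least 2-fold higher, a share near the 22% of all listed genes, and 1 at least 2-fold lower. Higd1b, a relative of the complex IV factors Higd1a and Higd2a and a pericyte marker, was at 3.81, from 93.1 TPM in VSMCs to 367 TPM in mcPCs. Bnip3l, a mitophagy receptor, was at 3.32, Egln3, an oxygen-sensing prolyl hydroxylase, at 2.52, and Vegfa at 1.47, and these were the 4. Bnip3l is also on the erythrocyte list. Epas1, which encodes an oxygen-regulated HIF alpha subunit, was the gene at least 2-fold lower, at -1.36. Hif1a, which encodes another, was at -0.73 and Rbpj at -0.75, both short of 2-fold.

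Accessory and coenzyme Q genes, 26 of 33 listed, had a median of -0.10, with 1 (3.85%, against 22% of all listed genes) at least 2-fold higher and 3 (11.5%, against 13.9%) at least 2-fold lower. Atpif1, the inhibitor of ATP synthase when it runs in reverse, was at 1.02, Coq3, a methyltransferase of coenzyme Q synthesis, at 0.51, and Gpd2, the mitochondrial glycerol phosphate dehydrogenase, at 0.47. The lowest were Coq10b, a coenzyme Q binding protein, at -2.77, Coq4 at -1.14 and Chchd10 at -1.04. Coq10b was at 232 TPM in VSMCs and 9.82 in mcPCs.

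Every one of the 114 genes had at least 10 reads per sample in both cell types, and 3 had under 100 in either, namely Ndufs5, Ndufaf6 and Cox7a1. The 95% counting interval of a log2 ratio had a median half-width of 0.05 over the 114 genes, so counting error was small beside most of the differences given, but it holds no variation between isolations. Rows for further respiratory subunits carry symbols outside the rule. LOC100911417 had the same levels as Atp5f1, at 131 TPM in VSMCs and 32.2 in mcPCs, and reads of such copies cannot be told apart. The remaining row of the 101, Ndufv3-ps1, is a pseudogene, at -0.71.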

How the data were processed

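RNA-Seq was run on polyadenylated RNA (100 ng of total RNA, RIN 6.40 to 8.50) of 3 VSMC and 3 mcPC samples as stranded libraries of 75-base single-end reads, each library in 4 runs. The authors filtered reads with Eoulsan, estimated abundances with Salmon 0.8.0 on the Rnor_6.0 cDNA set of Ensembl release 87, summed them per gene with tximport and normalised with DESeq2. Whether the counting used strand is not given in the sources used here.

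The deposited TPM values are the authors' means per cell type. The deposited estimated counts are the authors' means per run and were multiplied by 4 to give reads per sample. The deposited normalised counts are signal values that the authors corrected for depth and transcript length, also as means. Other deposited columns of the authors hold mean effective lengths. The 4 columns of the authors' comparison (log2 fold change, its standard error, p-value and adjusted p-value) were not used, and 0 columns of values per sample were left unmapped.

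Log2 ratios of the mean normalised counts were computed with no pseudocount, and 2-fold was the limit for a gene called higher or lower. With means only, the planned test on counts per sample was not run. Other scales, filters and pseudocounts were tried, among them counts without the erythrocyte list. Intervals (95%) of read totals are Poisson intervals, and those of log2 ratios come from a binomial (Clopper-Pearson) interval of the mcPC share of reads. Both treat rounded estimated counts as reads and cover counting error only. Named genes were all mitochondrial members, isoform family members, the 8 highest and 8 lowest nuclear log2 ratios, the most abundant subunits of each complex, and the 3 highest and 3 lowest of each further list, besides subunits named for their role, which were chosen after their values were seen. Members and lists were chosen with earlier results of these data known. Steps were tested on simulated data. Scripts were run in Python 3.11.15 with scipy 1.17.1, pandas 2.3.3, matplotlib 3.10.9 and numpy 2.4.6.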

Additional observations from a re-analysis of the deposited data

How the results depend on the processing

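The position of both groups relative to 0 moved with the scale. The gap between their medians was 2.66 to 2.69, which a constant shift cannot alter, so its range says nothing of stability. On mean TPM (pseudocount 0.1) the mitochondrial median was 0.50 and the nuclear median -2.19, with 0 mitochondrial and 0 nuclear genes at least 2-fold higher and 99 nuclear genes at least 2-fold lower (72.3% of all listed genes were), and Cox4i2 and Ndufa4l2 turned to -0.37 and -0.57. The median of all genes moved to -1.72 on that scale. Relative to the median gene of at least 0.8 TPM, the TPM medians were 2.38 and -0.31. With counts scaled to the same total they were 1.68 and -0.98, with 0 nuclear genes higher and 46 lower (15.5% and 28.8% of all listed genes). Without the erythrocyte list in that total they were 2.24 and -0.42, and without 4 further globin genes as well, a choice made after seeing the data, 2.42 and -0.24. With a 1.5-fold limit, 4 nuclear genes were higher and 35 lower, but the share of all listed genes past that limit was not computed. Without assembly factors, but with the pseudogene, the nuclear median was -0.45 and the gap 2.76. The mitochondrial share of the mcPC TPM, 11.7%, was 25.6% without the erythrocyte list and 35.3% without the further globin genes too. A pseudocount of 10 on normalised counts moved none of the 43 named members out of its counting interval. No paired analysis was possible because the columns give means of each cell type and carry no replicate numbers, and for the same reason leaving out each sample was not run. Genes under 100 reads per sample are limited by depth.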
